A study of Homo sapiens with 6 samples.

Results

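The genes described here are 9 that make or recycle pyrimidine nucleotides, UPP1, UCK1, UCK2, TK1, CAD, DHODH, UMPS, CMPK1 and CTPS1, out of 16274 genes with a symbol in the deposited table of estimated counts. They were picked by gene symbol, and transcripts with the same gene identifier were summed. All 9 had rows in both deposited tables, and all 9 passed the filter on low counts, as did 12655 genes in all. The choice was made with the difference between the groups already known, so each of the 9 genes is described by its values, with no p-value for its difference between the groups.

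Cells obtain uridine nucleotides by de novo synthesis, which builds the pyrimidine ring from glutamine, bicarbonate and aspartate, and by salvage, which phosphorylates nucleosides taken up or released inside the cell. Uridine phosphorylase works against uridine salvage: it cleaves uridine to uracil and ribose 1-phosphate, and the sugar phosphate can enter the pentose phosphate pathway. Both routes meet at UMP, which kinases carry on to UTP and, through CTP synthase, to CTP. One step of the de novo route, that of DHODH, sits in the inner mitochondrial membrane and passes electrons to ubiquinone in the respiratory chain.

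The cells were HN12, an established human line of head and neck squamous cell carcinoma, and both groups share that background. One group received CPI-613 (devimistat), a lipoate analogue aimed at mitochondrial 2-oxoacid dehydrogenases, and the other, called Control, received the solvent DMSO, each for 24 h. RNA-seq was made from 3 libraries per group, and neither the dose nor whether the cultures were separate was stated in the labels. The p-values therefore reflect variation among these libraries, possibly technical. The estimated counts summed to between 13455873 and 15485055 in the CPI-613 libraries and to between 11529379 and 12506645 in the Control libraries.

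All 8 epithelial and squamous markers examined, such as KRT5 and TP63, had at least 1 FPKM in each of the 6 libraries, and their summed level was 2970 to 6444 FPKM with CPI-613 and 4758 to 7033 FPKM in Control. FPKM are counts divided by transcript length and library total, and they are used here to compare levels between genes. The deposited values carry no unit and were taken to be FPKM, without a check of their scaling by length. PTPRC, which marks leukocytes, was at most 0.06 FPKM with CPI-613 and at most 0.07 FPKM in Control. The summed leukocyte markers were 27.7 to 43.9 FPKM with CPI-613 and 30.3 to 45.5 FPKM in Control, and nearly all of this was CD68. The summed fibroblast markers were 5.71 to 6.11 FPKM with CPI-613 and 6.47 to 7.97 FPKM in Control, mostly COL1A1, and the endothelial markers summed to at most 0.07 FPKM with CPI-613 and at most 0.58 FPKM in Control. The part of such cells in the results was not tested.

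UPP1, uridine phosphorylase 1, was the member that stood far from the rest. Its gene (gene ID 7378) lies on chromosome 7 at 48088704 to 48108736 of GRCh38.p14 and starts at more than one place. A pair of stretches in front of its starts is shown here because the transcripts that begin at the upstream start and those that begin further in are compared further on. The sequences are from RefSeq, plus strand, 5′ to 3′. In the first, chr7:48088454-48088627, which ends 77 bases before the RefSeq upstream start, capitals mark a match to TGANTCA, the AP-1 motif. In the second, chr7:48089004-48089210, which ends 44 bases before the RefSeq inner start and is intronic to the upstream transcript, capitals mark 2 overlapping matches to GGGCGG, the GC box.
UPP1 upstream start: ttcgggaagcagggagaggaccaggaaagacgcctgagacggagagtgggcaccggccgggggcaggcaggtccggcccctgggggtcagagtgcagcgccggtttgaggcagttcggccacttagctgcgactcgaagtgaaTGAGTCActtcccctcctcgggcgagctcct
UPP1 inner start: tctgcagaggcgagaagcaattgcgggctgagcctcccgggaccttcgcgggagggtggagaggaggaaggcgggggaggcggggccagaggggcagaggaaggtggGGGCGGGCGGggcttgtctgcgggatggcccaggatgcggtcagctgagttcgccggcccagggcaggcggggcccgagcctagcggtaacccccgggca

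The motifs were searched on both strands in the RefSeq windows of 300 bases around each start. TGANTCA was present in 7.71% of all 35116 windows, and among those of the 9 genes it occurred in front of the upstream start of UPP1, at base -107, and of the inner start of CTPS1, at base -14. GGGCGG was present in 45.0% of all windows and in at least 1 window of 7 of the 9 genes, with none for UMPS or CMPK1. TTCCCGC, an E2F motif, was in 6.55% of all windows and matched, on the other strand, at base -60 of the upstream UPP1 window and at base -12 of the inner TK1 window. CACGTG, the E-box, was in 7.26% of all windows and matched at base -159 of DHODH. TGATGNAA, a C/EBP-ATF element, was in 3.62% of all windows and these letters were in no window of the 9 genes. A match is a description of the letters and says nothing of binding in these cells.

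UPP1 measured 484, 445 and 518 FPKM in CPI-613 replicates 1 to 3, against 39.5, 54.1 and 37.1 FPKM in Control replicates 1 to 3. Every CPI-613 library lay far above every Control library, and the spread within each group was small beside the distance between the groups. The mean was 482 ± 36.3 FPKM with CPI-613 and 43.6 ± 9.23 FPKM in Control (SD, n = 3 each), an 11.1-fold ratio of levels. As CPM, counts relative to the library's total and scaled by TMM between libraries, the values were 559, 580 and 758 with CPI-613, against 42.3, 61.1 and 41.3 in Control. The fitted log2 fold change was 3.71 (SE 0.26), a 13.1-fold difference with a 95% interval of 8.65 to 19.9. In bulk RNA, more transcript in every cell and more cells with the transcript cannot be told apart. By signed log2 fold change UPP1 ranked 12 of 12655 tested genes.

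For each of the other 8 genes the groups overlapped in CPM. Their log2 fold changes ran from -0.52 for CMPK1 to 0.17 for CAD. All 8 were under 1 in size, as were 91.6% of all tested genes, and the median size over all tested genes was 0.30. Of the 9 genes, 1, UPP1, was called higher and 0 lower by edgeR's quasi-likelihood test at a Benjamini-Hochberg adjusted p under 0.05, where 1.94% of all tested genes were called higher and 1.23% lower (3.17% in either direction). At an unadjusted p under 0.05 the count among the 9 was again 1, where 14.4% of all tested genes reached it, and DESeq2 called the same number, where it called 3.64% of the tested genes higher and 3.02% lower (6.66% in either direction). Every CPI-613 library lay above every Control library in UPP1 alone of the 9, where 11.9% of all tested genes did so, and in none of the 9 did every CPI-613 library lie below, where 9.18% did (21.0% in either direction). The choice of the 9 genes used this comparison, and nothing is read from these counts. UPP1 was not called when Control replicate 1 or Control replicate 3 was left out, when edgeR called 0 genes in all, although 1064 and 1117 genes had an unadjusted p under 0.05, and the GC- and length-adjustment described further on gave 619 and 645 calls.

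**Figure D1:**
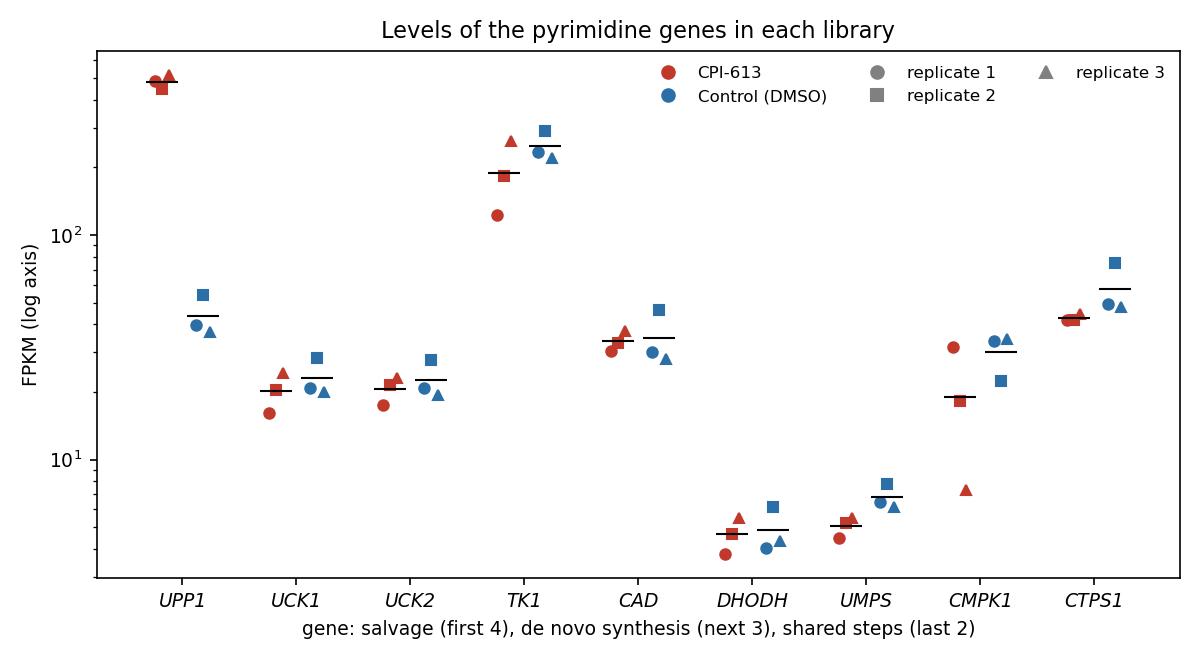
Level of the 9 pyrimidine genes in FPKM on a log axis, with 1 point per library (CPI-613 red and left, Control blue and right) and a line at each group's mean. UPP1 sits at 445 to 518 FPKM with CPI-613 and at 37.1 to 54.1 FPKM in Control, while the points of CMPK1 and TK1 are the most spread within the CPI-613 group.

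The salvage kinases come next. UCK1 and UCK2 are the uridine-cytidine kinases, which phosphorylate uridine and cytidine and so compete with uridine phosphorylase for uridine. UCK1 (gene ID 83549, chromosome 9, 131523801 to 131531263) measured 16.1, 20.4 and 24.2 FPKM with CPI-613, against 20.8, 28.3 and 19.9 FPKM in Control. Its groups overlapped, with the lowest FPKM in CPI-613 replicate 1 and the highest in Control replicate 2. In CPM CPI-613 replicate 1 was again the lowest, but CPI-613 replicate 3 was the highest. The log2 fold change of UCK1 was 0.04 (SE 0.30), with a 95% interval of -0.67 to 0.74. UCK2 (gene ID 7371, chromosome 1, 165827614 to 165911618) measured 17.4, 21.4 and 23.2 FPKM with CPI-613, against 20.9, 27.8 and 19.4 FPKM in Control. The same libraries as for UCK1 were its lowest and highest on each scale, and its log2 fold change was 0.08 (SE 0.26), with an interval of -0.53 to 0.69. UCK2 overlaps the gene TMCO1 on the opposite strand by 225 bases and an antisense transcript by 9889 bases, and because no source says whether the counting used strand, reads of these transcripts cannot be told apart.

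TK1, the cytosolic thymidine kinase, phosphorylates thymidine and deoxyuridine and is made mainly in S phase. TK1 (gene ID 7083, chromosome 17, 78174079 to 78187204) measured 122, 182 and 263 FPKM with CPI-613, against 234, 291 and 220 FPKM in Control. In FPKM CPI-613 replicate 1 was the lowest library and replicate 3 lay inside the Control range. In CPM the values were 141, 236 and 379 with CPI-613, against 254, 341 and 245 in Control, with CPI-613 replicate 3 the highest. The groups thus overlapped on both scales. The log2 fold change was -0.15 (SE 0.36), with an interval of -0.99 to 0.68.

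In the de novo route, CAD carries the opening enzyme activities in a single protein, carbamoyl phosphate synthetase, aspartate transcarbamylase and dihydroorotase. CAD (gene ID 790, chromosome 2, 27217369 to 27243943) measured 30.6, 33.1 and 37.5 FPKM with CPI-613, against 30.0, 46.1 and 28.2 FPKM in Control. In FPKM Control replicate 2 was the highest library and Control replicate 3 the lowest, so that the CPI-613 values lay within the Control range. In CPM the values were 196, 240 and 309 with CPI-613, against 184, 299 and 178 in Control, with CPI-613 replicate 3 the highest. The log2 fold change of CAD was 0.17 (SE 0.28), with an interval of -0.48 to 0.82.

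DHODH, dihydroorotate dehydrogenase, had the lowest level of the 9 genes in every library. DHODH (gene ID 1723, chromosome 16, 72008744 to 72027659) measured 3.80, 4.67 and 5.48 FPKM with CPI-613, against 4.04, 6.14 and 4.35 FPKM in Control. The groups overlapped, and the log2 fold change of 0.02 (SE 0.32) had an interval of -0.72 to 0.77. This lowest level rested on 164 to 256 counts per library with CPI-613 and on 161 to 262 in Control.

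UMPS joins orotate to ribose phosphate and decarboxylates the product to UMP, the end of the de novo route. UMPS (gene ID 7372, chromosome 3, 124730452 to 124749273) measured 4.46, 5.19 and 5.51 FPKM with CPI-613, against 6.46, 7.82 and 6.12 FPKM in Control. In FPKM every CPI-613 library lay below every Control library, but in CPM the groups overlapped, at 27.5, 35.7 and 42.4 CPM with CPI-613 against 37.5, 48.8 and 36.5 CPM in Control. The log2 fold change was -0.22 (SE 0.25), with an interval of -0.80 to 0.36.

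CMPK1, the UMP/CMP kinase, serves both routes by turning UMP and CMP into the diphosphates. CMPK1 (gene ID 51727, chromosome 1, 47333790 to 47378839) measured 31.7, 18.1 and 7.34 FPKM with CPI-613, against 33.8, 22.4 and 34.6 FPKM in Control. It had the widest spread of the 9 within the CPI-613 group, and CPI-613 replicate 1 overlapped with Control. The log2 fold change was -0.52 (SE 0.43), with the widest interval of the 9, -1.53 to 0.48.

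CTPS1, CTP synthase 1, makes CTP from UTP with glutamine as the nitrogen donor. CTPS1 (gene ID 1503, chromosome 1, 40979696 to 41012565) measured 41.8, 41.9 and 44.6 FPKM with CPI-613, against 49.1, 75.2 and 47.9 FPKM in Control. In FPKM the groups were apart, with CPI-613 lower, whereas in CPM they overlapped, at 103, 116 and 139 CPM with CPI-613 against 114, 189 and 115 CPM in Control. The log2 fold change was -0.23 (SE 0.26), with an interval of -0.83 to 0.38.

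The scale between libraries moved with these small differences. Under library size alone, as FPKM use it, the median log2 fold change of all tested genes was -0.17, against 0.02 under TMM, and 229 genes were called higher and 258 lower in place of 245 higher and 156 lower. The log2 fold change of UPP1 was 3.51 on that scale. Over 25 alternative settings the log2 fold change of UPP1 stayed between 3.47 and 3.90 and that of CMPK1 between -0.99 and -0.12. For the other 7 genes the range over the settings included 0, for example -0.21 to 0.25 for UCK1 and -0.57 to 0.14 for TK1, so no direction is given for them.

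**Figure D2:**
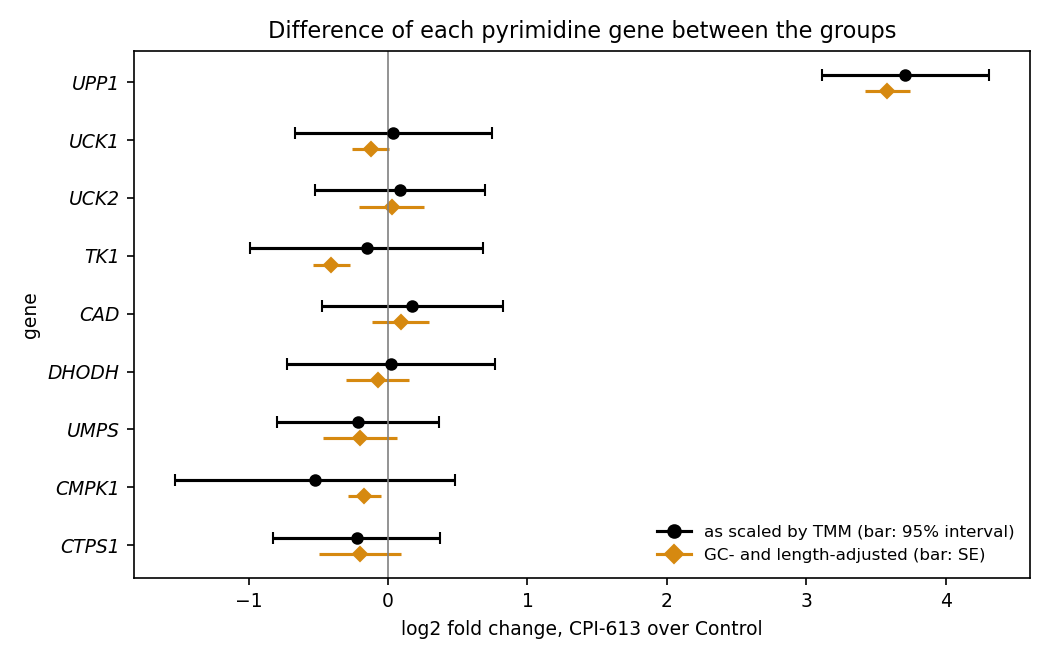
Log2 fold change of CPI-613 over Control for the 9 genes, as scaled by TMM (black, with the 95% interval) and GC- and length-adjusted (orange, with the SE). UPP1 stands at 3.71 and 3.58, while the other 8 genes lie between -0.52 and 0.17 as scaled by TMM.

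The order of the levels within the route changed in UPP1's place. With CPI-613 UPP1 had the highest level of the 9 genes in each of the 3 libraries, and in Control it ranked 3 in each of the 3 libraries, after TK1 and CTPS1. By mean FPKM the order with CPI-613 was UPP1, TK1, CTPS1, CAD, UCK2, UCK1, CMPK1, UMPS and DHODH, in which the library ranges of neighbours overlapped for UCK2 and UCK1, UCK1 and CMPK1, and UMPS and DHODH. In Control the order was TK1, CTPS1, UPP1, CAD, CMPK1, UCK1, UCK2, UMPS and DHODH, and there the ranges were separate between TK1 and CTPS1 and between UCK2 and UMPS but overlapped for all other neighbours.

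UPP1 made up 59.3% ± 4.51 of the summed FPKM of the 9 genes with CPI-613 and 9.20% ± 0.429 in Control (SD, n = 3 each). TK1 made up 22.7% ± 6.07 with CPI-613 and 52.7% ± 0.621 in Control. The summed level was 752, 772 and 928 FPKM with CPI-613, against 438, 559 and 417 FPKM in Control. Without UPP1 the sum was 268, 327 and 411 FPKM with CPI-613, against 399, 505 and 380 FPKM in Control, and the groups then overlapped. These shares follow from the levels already given and are no separate measurement.

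Libraries of the same group differed along GC content, which the 9 genes followed within CPI-613 but less clearly within Control. Across all genes the log2 deviation from the mean of all 6 libraries was regressed on GC content. It changed by -0.40, 0.10 and 0.67 per 10 points of GC content in CPI-613 replicates 1 to 3. In Control replicates 1 to 3 it changed by -0.20, 0.09 and -0.26. Of the 9 genes 8 were highest in CPI-613 replicate 3 and lowest in CPI-613 replicate 1, and the same 8 were highest in Control replicate 2. CMPK1, with the lowest GC content of the 9 at 37.8%, was the exception in both groups.

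TK1, with the highest GC content at 62.8%, was 2.69 times as high in CPI-613 replicate 3 as in replicate 1, and CMPK1 was 0.290 times as high. In Control the ratio of replicate 2 to replicate 1 was 1.34 for TK1 and 0.714 for CMPK1. Over the 9 genes the log2 ratio and the GC content had a Pearson correlation of 0.85 within CPI-613 and 0.65 within Control, a description over genes that share the same libraries. The Control ratio of CTPS1, at 47.1% GC content, was 1.66, above that of TK1. A Control correlation without CMPK1 was not computed.

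**Figure D3:**
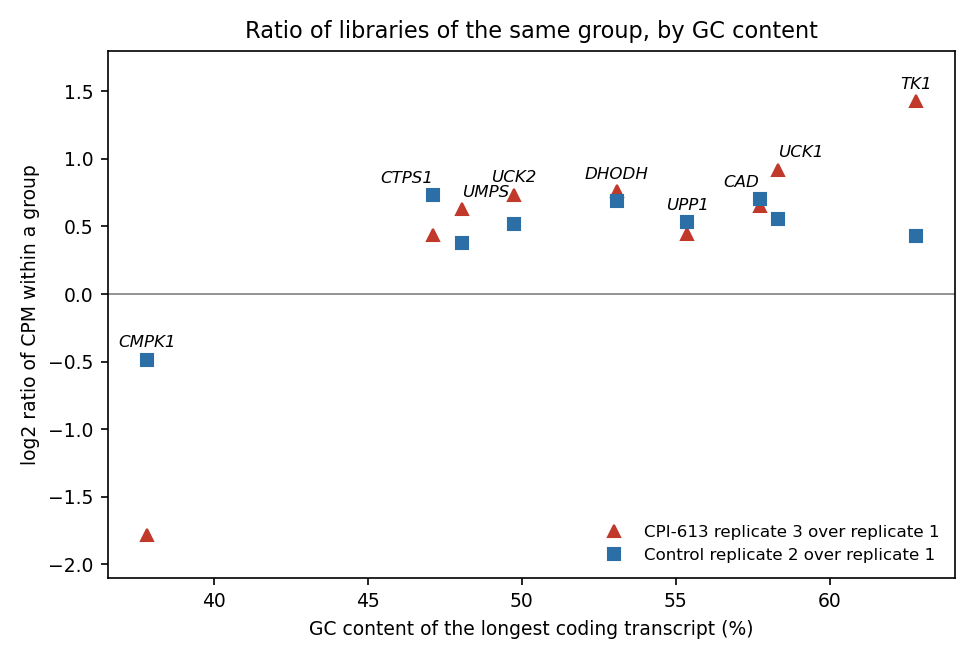
Log2 ratio of CPM between libraries of the same group, CPI-613 replicate 3 over 1 (red) and Control replicate 2 over 1 (blue), against GC content of each gene's longest coding transcript. CMPK1 at 37.8% GC is below 0 in both groups, the other 8 genes are above 0, and TK1 at 62.8% has the highest CPI-613 ratio.

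After the dependence on GC content and on transcript length was taken out library by library, UPP1 measured 698, 557 and 546 CPM with CPI-613, against 46.9, 56.7 and 46.7 CPM in Control, and its log2 fold change was 3.58 (SE 0.16). The UPP1 groups did not overlap on that scale either. The trend was fitted to deviations from the mean of all 6 libraries. A trend along GC content that differs between the groups was therefore taken out too. CMPK1 measured 54.3, 61.4 and 52.0 CPM with CPI-613, against 64.7, 60.8 and 63.1 CPM in Control, and its SD of log2 CPM within CPI-613 was 0.13 after the adjustment and 0.90 before it.

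TK1 measured 190, 223 and 251 CPM with CPI-613, against 286, 308 and 285 CPM in Control on the adjusted scale. There, unlike on the other scale, every TK1 value with CPI-613 lay below every Control value, with a log2 fold change of -0.41 (SE 0.13). The share of all genes that lay apart on the adjusted scale is not given, so nothing is read from this. UCK1 drew together within CPI-613, at 37.7, 40.5 and 39.8 CPM, while the SD of UMPS and CTPS1 grew in both groups. The spread of log2 CPM was smaller after the adjustment in 7 of the 9 genes within CPI-613 and in 6 of the 9 within Control. With the adjustment, 1 of the 9 genes, UPP1, was called, where 11.7% of all tested genes were called.

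The share of a gene in each of its transcripts is not set by the gene's total, so it was tested. Which transcripts pass the count filter does depend on that total. EdgeR's test of transcript usage covered 8404 genes and called 48 of them, 0.571%. It could be run for 8 of the 9 genes, since UMPS has 1 transcript in the table, and it called 0 of the 8, with 0 at an unadjusted p under 0.05, which 3.56% of the 8404 genes reached. Without Control replicate 2, UPP1 was called, with an edgeR adjusted p of 0.038 after Benjamini-Hochberg adjustment, where 0.652% of 8890 genes were called, and it was called in none of the other usage settings. UPP1 transcripts such as NM_001287426, with estimated counts of 186, 143 and 174 with CPI-613 against 0, 11.6 and 0 in Control, passed the count filter through the CPI-613 libraries. Nothing is therefore read from that call. Without Control replicate 3, UCK2 had an unadjusted p of 0.0168 in that edgeR test and an adjusted p of 0.506. With all 6 libraries the lowest unadjusted p-values of this edgeR test were 0.107 for UCK2 and 0.216 for UPP1. A p that misses the threshold does not show that usage was the same.

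The table holds 11 transcripts of UPP1, and 10 of them had a higher mean estimated count with CPI-613. UPP1 was chosen with its higher total known, and these counts are not scaled to depth, so nothing is read from this number. The most abundant with CPI-613, NM_003364, begins at the inner start and held 35.3%, 36.6% and 40.0% of the UPP1 counts with CPI-613, against 33.6%, 18.2% and 35.1% in Control. These ranges were separate, but narrowly, and Control replicate 2 stood apart. NM_001287429, also with an inner start, held 18.6%, 17.0% and 17.8% with CPI-613, against 29.1%, 26.99% and 22.6% in Control, with every CPI-613 share lower. How many of all transcripts lie apart in this way was not counted, and the usage test with all 6 libraries did not call UPP1.

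Transcript NM_001287426, which begins at the upstream start behind the first sequence shown, had estimated counts of 186, 143 and 174 with CPI-613, against 0, 11.6 and 0 in Control. Together the 2 transcripts with the upstream start had 13.7, 11.0 and 13.5 CPM with CPI-613, against 0.631, 0.904 and 0 CPM in Control. The 3 transcripts with inner starts had 319, 335 and 463 CPM with CPI-613, against 28.7, 29.9 and 26.1 CPM in Control. Both starts thus had higher values with CPI-613 in every library, with ratios of means of 24.9 for the upstream start, on few Control reads, and 13.2 for the inner starts. These higher values go with the gene's higher total, known when UPP1 was chosen, and are no separate support. The upstream start made up 2.04% ± 0.363 of UPP1 with CPI-613 and 0.991% ± 0.858 in Control (SD, n = 3 each). The remaining 6 transcripts had no start matched in GENCODE 29 and a ratio of means of 12.7. How reads were divided between transcripts that share exons is not stated for the table.

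**Figure D4:**
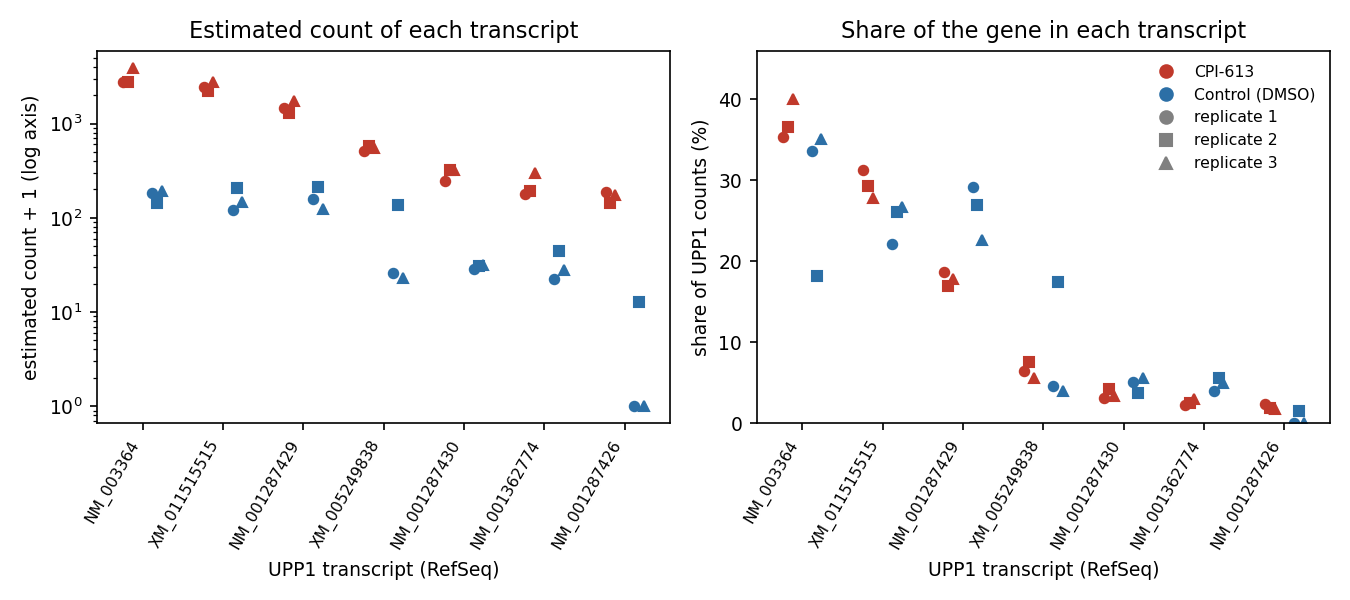
The 7 UPP1 transcripts with the highest mean count with CPI-613, as estimated count plus 1 on a log axis (left) and as a share of the gene's counts in percent (right), 1 point per library, CPI-613 red and left of Control in blue. All 7 are higher with CPI-613 in every library, as is the gene's total that was known when it was chosen. NM_003364 has 35.3% to 40.0% of the gene with CPI-613.

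In the other genes the main transcript was the same in both groups. UCK2 was 95.3% ± 1.20 NM_012474 with CPI-613 and 98.2% ± 1.97 in Control (SD, n = 3 each). Its other transcript, NM_001363568, held 4.93%, 3.38% and 5.73% with CPI-613, against 0.807%, 0.518% and 4.07% in Control, and these ranges overlapped. UCK1 transcript NM_001261450 had estimated counts of 22.7, 7.84 and 0 with CPI-613, against 53.5, 62.7 and 82.2 in Control, with every CPI-613 library lower. Here too no share over all transcripts was counted, and the usage test did not call UCK1. TK1 was 95.6% ± 0.337 NM_003258 with CPI-613 and 94.2% ± 0.645 in Control. CMPK1 has a pair of transcripts with identical values in every library, as when reads cannot be divided between them.

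The wider pathway, read from lists of genes by role, held 74 other pyrimidine genes, of which 71 were in the table and 66 were tested. Of the 66, edgeR's test called 1 higher, SLC29A2, and 1 lower, CMPK2, beside 1.94% and 1.23% of all genes, and 64 did not pass. At an unadjusted p under 0.05 there were 10 of the 66, beside 14.4% of all tested genes, and DESeq2 called 3 higher and 3 lower, beside 3.64% and 3.02%. The lists that follow are read against these same shares over all genes. Their median log2 fold change was 0.05, beside 0.02 over all tested genes.

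SLC29A2 encodes the equilibrative nucleoside transporter ENT2, which moves uridine and other nucleosides across the plasma membrane. It measured 30.3, 31.4 and 34.0 FPKM with CPI-613, against 15.1, 15.2 and 11.7 FPKM in Control. All CPI-613 libraries were higher, the log2 fold change was 1.40 (SE 0.23), and edgeR's quasi-likelihood test with Benjamini-Hochberg adjustment over all genes gave an adjusted p of 0.025. That call was lost with adjusted p of 0.144 without CPI-613 replicate 2, and 0.157, 0.0537 and 0.152 without Control replicates 1, 2 and 3. The other 5 tested transporters did not pass, and the median of all 6 was -0.25.

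CMPK2 encodes a mitochondrial UMP/CMP kinase that is also induced by interferon. It measured 0.05, 0.10 and 0.22 FPKM with CPI-613, against 1.90, 1.43 and 2.45 FPKM in Control, low values in both groups. It was lower in every CPI-613 library, with a log2 fold change of -3.69 (SE 0.52) and an adjusted p of 0.0156 by the same edgeR test. Its log2 fold change was -4.43 without CPI-613 replicate 3 and -1.95 on the log2(FPKM + 0.5) scale, which understates the change of a gene this low. Adjusted p was 0.12 without CPI-613 replicate 2, 0.0927 without Control replicate 1 and 0.0936 without Control replicate 3. Of the 16 other salvage enzymes and kinases tested, the remaining 15 did not pass, and the median log2 fold change was 0.07.

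Among 11 other enzymes of pyrimidine nucleotide synthesis 0 were called by edgeR, 1 had an unadjusted p under 0.05, and DESeq2 called 0. TYMS, thymidylate synthase, averaged 45.8 ± 4.79 FPKM with CPI-613 and 73.0 ± 8.17 FPKM in Control (log2 fold change -0.44, SE 0.24). RRM1, the large subunit of ribonucleotide reductase, averaged 47.0 ± 18.7 FPKM with CPI-613 and 70.9 ± 3.04 FPKM in Control (log2 fold change -0.43, SE 0.25). Neither passed edgeR's test, with adjusted p of 0.50 and 0.546, and the median of the list was -0.16.

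Of 16 tested genes of pyrimidine breakdown and dephosphorylation 0 were called by edgeR, 4 had an unadjusted p under 0.05 (14.4% over all tested genes), and DESeq2 called 1 higher and 2 lower (3.64% and 3.02% over all tested genes). NT5C, a cytosolic nucleotidase, averaged 86.9 ± 15.9 FPKM with CPI-613 and 71.9 ± 10.2 FPKM in Control, and CANT1, a calcium-activated nucleotidase, averaged 71.9 ± 15.1 FPKM with CPI-613 and 51.8 ± 7.63 FPKM in Control. The groups overlapped in both genes, and neither passed edgeR's test (adjusted p of 0.498 for NT5C and 0.305 for CANT1).

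The 8 genes that release or use pentose phosphates after uridine cleavage had 0 calls by edgeR or DESeq2 and 0 with an unadjusted p under 0.05. TKT, transketolase, averaged 209 ± 60.6 FPKM with CPI-613 and 181 ± 20.5 FPKM in Control, and TALDO1, transaldolase, averaged 170 ± 49.98 FPKM with CPI-613 and 160 ± 18.7 FPKM in Control. Of 9 tested users of UTP and CTP 0 were called by edgeR, 1 had an unadjusted p under 0.05, and DESeq2 called 1 higher. CMAS, which activates sialic acid with CTP, averaged 39.2 ± 8.77 FPKM with CPI-613 and 42.2 ± 6.12 FPKM in Control.

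When GC- and length-adjusted, edgeR called 6 of the 66 other pyrimidine genes higher (SLC29A2, ENTPD5, ENTPD6, CANT1, UGDH and PCYT2) and 5 lower (CMPK2, NME4, TYMS, DPYD and SAMHD1), where 6.67% of all genes were called higher and 5.03% lower. DPYD, which starts the breakdown of uracil, measured 3.28, 2.44 and 1.33 FPKM with CPI-613, against 6.20, 3.79 and 8.11 FPKM in Control, with every CPI-613 library lower. PCYT2, which makes CDP-ethanolamine from CTP, averaged 16.5 ± 4.52 FPKM with CPI-613 and 7.18 ± 1.33 FPKM in Control, with an edgeR adjusted p of 0.00466 with the adjustment and 0.0718 without it. For DPYD the GC- and length-adjusted log2 fold change was -0.91 (SE 0.21), with an adjusted p of 0.0297 by edgeR, and -1.29 with an adjusted p of 0.177 without that adjustment.

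**Figure D5:**
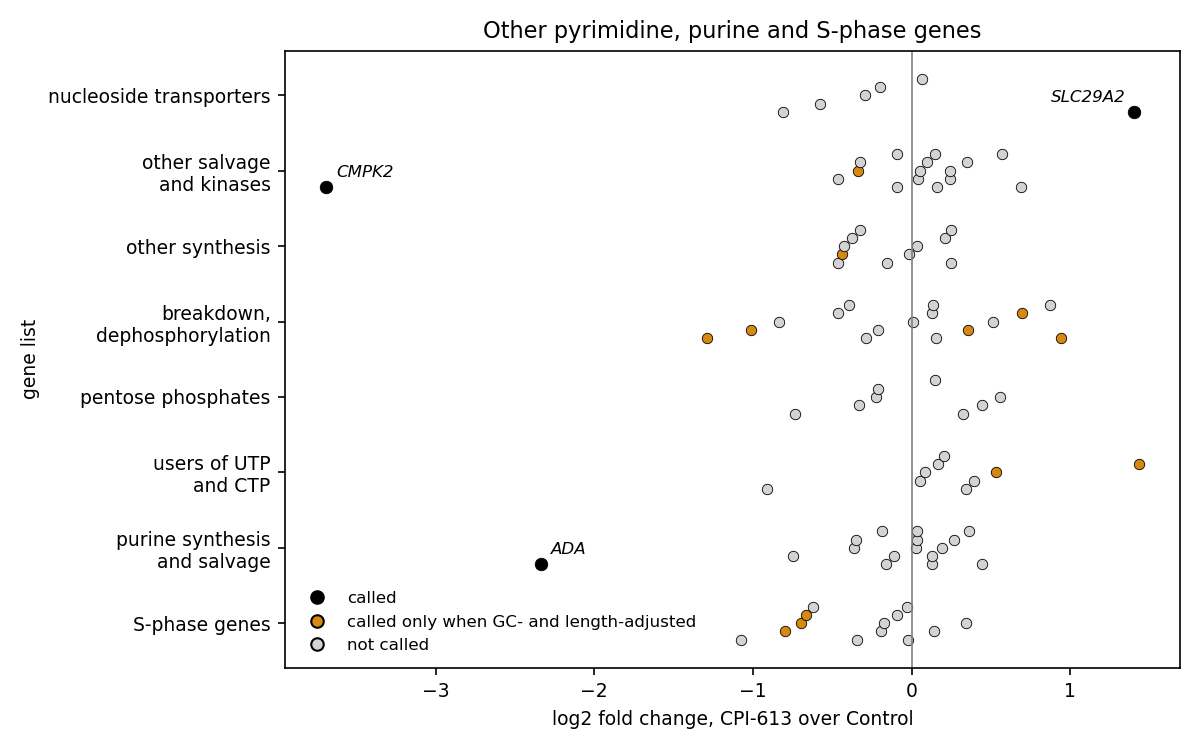
Log2 fold change of CPI-613 over Control for every tested gene of the 8 other lists, 1 point per gene, with genes called by edgeR in black, those called only when GC- and length-adjusted in orange and the others in grey. SLC29A2 at 1.40, CMPK2 at -3.69 and ADA at -2.34 are the called genes, while PCYT2 lies as far out as SLC29A2 at 1.43 and DPYD at -1.29 without being called in that fit.

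Purine genes were set beside the pyrimidine genes. Of 16 tested, 1, ADA, which deaminates adenosine, was called lower and 15 did not pass, with a median log2 fold change of 0.03. ADA measured 3.37, 4.39 and 6.33 FPKM with CPI-613, against 36.5, 14.3 and 34.9 FPKM in Control (log2 fold change -2.34, SE 0.46, edgeR adjusted p of 0.0459). Without Control replicate 2 its log2 fold change was -2.67, and -2.98 when GC- and length-adjusted as well. That call was lost in limma-voom, with an adjusted p of 0.0504, and without CPI-613 replicate 2, Control replicate 1 or Control replicate 3, with adjusted p of 0.235, 0.208 and 0.212.

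S-phase genes are given beside TK1, which is tied to that phase. Of 13 tested, 0 were called by edgeR, 4 had an unadjusted p under 0.05 (14.4% over all tested genes), and DESeq2 called 2 lower (3.02% over all tested genes). For the whole list the median was -0.20 on the log2 scale, with 11 of the 13 genes below 0, where 48.2% of all tested genes were. MCM7, part of the replicative helicase, averaged 136 ± 32.6 FPKM with CPI-613 and 162 ± 32.0 FPKM in Control, and MCM4, another part, averaged 114 ± 2.65 FPKM with CPI-613 and 166 ± 13.5 FPKM in Control. GC- and length-adjusted, 3 were called lower by edgeR, MCM3, PCNA and E2F1. The part of S phase in the TK1 values was not tested.

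Over the 6 libraries, the 5 genes with the log2 CPM most like that of UPP1, among 10859 genes whose log2 CPM averaged 2 or more, were GTPBP2, DDIT3, ROBO3, RBCK1 and INHBE, with Pearson correlations of 0.998 to 0.999. The 6 libraries form a high and a low group, so these values mostly restate the distance between the groups. GTPBP2 averaged 252 ± 12.9 CPM with CPI-613 and 111 ± 9.003 CPM in Control, and DDIT3, a stress-induced transcription factor, averaged 113 ± 5.70 CPM with CPI-613 and 30.7 ± 3.95 CPM in Control (SD, n = 3 each). INHBE, an inhibin subunit, averaged 61.1 ± 17.2 CPM with CPI-613 and 1.76 ± 0.362 CPM in Control. ROBO3 averaged 9.41 ± 0.909 CPM with CPI-613 and 3.56 ± 0.298 CPM in Control. RBCK1 averaged 222 ± 27.2 CPM with CPI-613 and 73.1 ± 8.92 CPM in Control.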

How the data were processed

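NEBNext Ultra II libraries were made from total RNA of 6 HN12 samples, per the labels' protocols. STAR 2.5, HTSeq, CASAVA, DESeq2, edgeR 3.16.5 and the build hg38 appear in the submitters' processing notes, with no role given. The authors deposited estimated counts per RefSeq transcript, and a table of values per gene with no unit given. These were taken as FPKM that the authors deposited. Over 1147 single-transcript genes the value of 1 read was scaled by library total and set against the gene's mean over libraries. Its median in each library deviated by at most 0.417%. Scaling by transcript length was not checked in this way. Of 79031 transcripts 27 were left out for a date in a cell, none of the 9 genes described.

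Estimated counts were summed per gene, rounded, filtered with filterByExpr (minimum count 10, total 15) and TMM-scaled. The quasi-likelihood test of edgeR 4.0.16 (R 4.3.3) was used, two-sided, with group as the covariate and Benjamini-Hochberg adjustment over 12655 genes at 0.05. The 53 genes without a symbol held 0.0163% of counts. Intervals are t intervals of that fit. Transcript usage was tested with diffSpliceDGE. DESeq2 1.42.0 and limma 3.58.1 gave alternatives. The longest coding transcript in GENCODE 29 supplied GC content and length for 99.0% of genes. Motifs were read in RefSeq promoter windows of GRCh38.p14, the build named hg38. The scripts were tested on simulated counts.

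The 9 genes and all lists were chosen with earlier results of these data known. Genes named from a list were up to 4 called genes with the largest log2 fold change, or the 2 with the highest mean FPKM where none was called. One gene that this rule names is not reported here. Genes named as called under the GC- and length-adjustment, with DPYD and PCYT2, were chosen after their values were seen. The spread between replicates exceeded counting error in every pair (chi-square per degree of freedom at least 3.85), so precision rests on 3 libraries per group. Alternatives were other scalings, filters and tests, FPKM with pseudocounts of 0.5 and 0.1, a GC and length offset, a replicate block and leaving out each library.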

Additional observations from a re-analysis of the deposited data

How the results depend on the processing

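Over 25 alternatives, each of the 225 fold changes of the 9 genes moved by less than the larger of the gene's SDs of log2 CPM in the 2 groups, though some moved by more than the smaller SD, such as CTPS1, at 0.16 without Control replicate 2 with the GC and length offset and -0.23 with all libraries. UPP1 alone of the 9 was called except without Control replicate 1 or 3 (no gene called by edgeR), and without CPI-613 replicate 3 with the GC and length offset, when TK1 was called too. The counts of calls depended on the processing. All genes called were 401, but 870 by DESeq2, 1481 with the GC and length offset, 70 at an adjusted p of 0.01, and 0 to 900 when single libraries were left out. With the offset and without CPI-613 replicates 1, 2 and 3 and Control replicates 1, 2 and 3 in turn, the counts were 2653, 604, 1436, 619, 1433 and 645. For the other pyrimidine genes the count was 2, but 6 by DESeq2, 11 with the offset, 0 at an adjusted p of 0.01, 0 to 5 without single libraries and, with the offset too, 13, 4, 9, 4, 9 and 4 in that order. For purine genes it was 1, but 0 by limma-voom, 0 at an adjusted p of 0.01, 0 to 1 without single libraries and 3 with the offset without CPI-613 replicate 1. For S-phase genes it was 0, but 2 by library size only, 2 by DESeq2, 3 with the offset, 2 by each of the 3 fits of FPKM, 0 to 1 without single libraries and, with the offset too, 3, 0, 3, 1, 2 and 2 in that order. For transcript usage it was 48, but 8 with a mean transcript count of at least 50, 26 with curated transcripts only and 6 to 70 without single libraries, and UPP1 was called for usage without Control replicate 2 alone. The cause was not tested.

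The replicate number as a block gave 190 calls over all genes, 1 for the other pyrimidine genes, 0 for purine genes, 0 for S-phase genes and 0 for transcript usage, and with the offset 888, 5, 1 and 1 for the same 4 gene groups. Under the block SLC29A2 had an edgeR adjusted p of 0.0935 and ADA of 0.0616. The deviations of same-numbered libraries had correlations of 0.46, -0.10 and -0.61 for numbers 1, 2 and 3. Each CPI-613 library correlated best with a Control library of another number. These were replicate 1 with Control replicate 3 (0.60), replicate 2 with Control replicate 1 (0.09) and replicate 3 with Control replicate 2 (0.68). Control replicate 1 correlated best with its own number. These deviations were not adjusted for GC content, along which libraries of a group differed. The correlations therefore cannot settle whether the numbers pair the samples.

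Of 450 fold changes of the other named genes, 404 kept direction and side of the threshold, 30 were no longer called, 6 became called and 10 changed sign. When single libraries were left out, the log2 fold change ran from -0.026 (without CPI-613 replicate 3) to 0.57 for TALDO1, from -0.018 (without Control replicate 2) to 0.19 for CMAS and from -0.32 to 0.19 for MCM7, which was above 0 without CPI-613 replicate 1 (0.19), CPI-613 replicate 2 (0.03) or Control replicate 2 (0.16). CMAS also changed sign with upper quartile scaling (-0.024), library size only (-0.10) and the 3 FPKM fits (-0.12 each). Where a library is left out, its group is assumed to vary as the other does. Depth limits CMPK2, with 2 to 9 counts per CPI-613 library and 50 to 84 in Control, and the upstream UPP1 start.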

Other observations

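The tested genes nearest to UPP1 on chromosome 7, taken by position on either side, were HUS1 and SUN3 before it and ABCA13 and FIGNL1 after it. HUS1 lies at 47963288 to 47979615, SUN3 at 47987148 to 48035902 and ABCA13 at 48171458 to 48647497. FIGNL1, at 50444133 to 50450350, is much further from UPP1, which ends at 48108736. SUN3, which encodes a nuclear envelope protein, averaged 4.77 ± 0.515 CPM with CPI-613 and 1.79 ± 0.491 CPM in Control (SD, n = 3 each), and ABCA13, a transporter of the ABC family, averaged 2.76 ± 1.71 CPM with CPI-613 and 0.803 ± 0.232 CPM in Control. In both, every CPI-613 library was higher, as in 11.9% of all tested genes. Neither passed edgeR's quasi-likelihood test with Benjamini-Hochberg adjustment (log2 fold changes 1.41, SE 0.31, and 1.77, SE 0.56, adjusted p of 0.0642 and 0.178). Both rested on few counts, 16 to 72 per library for SUN3 and 7 to 63 for ABCA13. GC- and length-adjusted, both were called by edgeR, with log2 fold changes of 1.69 (SE 0.31) and 2.01 (SE 0.36) and adjusted p of 0.0127 and 0.0118. With that adjustment 6.67% of all tested genes were called higher. HUS1, a checkpoint clamp subunit, averaged 16.9 ± 5.36 CPM with CPI-613 and 11.9 ± 1.51 CPM in Control and was called by edgeR only with that adjustment, with an adjusted p of 0.0481. FIGNL1 averaged 42.0 ± 36.5 CPM with CPI-613 and 39.8 ± 9.34 CPM in Control, and its groups overlapped. UPP1 itself rested on 7545 to 9793 counts per CPI-613 library and on 539 to 787 per Control library.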
